A study of Mus musculus with 18 samples.

Results

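The globin genes of the mouse and Alas2 were followed in cultured embryonic sensory neurons before and after their axons were cut. The list holds 8 of the 47643 genes counted: the embryonic globins Hba-x, Hbb-y and Hbb-bh1, the adult globins Hba-a1, Hba-a2, Hbb-bs and Hbb-bt, and Alas2, the first enzyme of heme synthesis in red cells. Hba-x had been chosen by its lower level at 24 h post injury (HPI) against control, and the other 7 were listed as its gene family and as the heme enzyme that goes with it. The comparisons with control are therefore given as a description, with no test.

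Dorsal root ganglia (DRG) of e13.5 CD-1 embryos, a stage given in days of gestation, were dissociated and grown as spot cultures (eDRG spot culture), a dense drop of neurons from which axons grow outward, until day in vitro (DIV) 7, on which the labels place collection. The growth medium held nerve growth factor and FDU, which blocks cell division and so removes cells that divide. Control cultures were not injured, and the cultures of the other 5 groups were cut with a blade and collected 1, 3, 8, 16 or 24 h later. The paper places the cut itself on DIV7, so it and the labels differ on the age at collection. Time after injury and age of the culture may therefore not be separable here. Each of the 6 groups had 3 libraries, numbered replicate 1, 2 and 3, and the ganglia came from timed pregnant mice, with no library tied to 1 embryo. No genotype or drug separated the groups, and FDU and nerve growth factor were shared by all 18 libraries. The labels do not say whether the replicates were separate cultures, so the p-values measure the spread between these libraries, which may be technical.

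Hemoglobin is a tetramer of alpha-like and beta-like chains, each holding a heme. The first red cells of the embryo, made in the yolk sac, use the chains encoded by Hba-x, Hbb-y and Hbb-bh1 beside the adult alpha chain, and the later red cells of fetal liver and bone marrow use the adult chains. The genes lie in 1 cluster per chain type. In embryonic blood both kinds of red cell can circulate together, and both take their heme from the pathway that Alas2 starts.

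The alpha-like genes lay on chromosome 11 in the order Hba-x (chr11:32276400-32278116), Hba-a1 (chr11:32283511-32284465) and Hba-a2 (chr11:32296489-32297298), all on the plus strand of GRCm38. The beta-like genes lay on the minus strand of chromosome 7, with Hbb-y (chr7:103851749-103853216) first, then Hbb-bh1 (chr7:103841637-103843164), Hbb-bs (chr7:103826534-103828096) and Hbb-bt (chr7:103812524-103813996). Each globin gene has 3 exons. Alas2 lay on the X chromosome (chrX:150547375-150570638), with 11 exons.

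The promoters of the 4 genes with enough reads for a test are shown because 3 of them, the globins, went up and down together between libraries whereas Alas2 did so less. Each line holds the 130 bases before the RefSeq start on the gene's own strand (GRCm38.p6), in lower case, with capitals marking the motif TATAA, which the basal machinery binds, the motif CACCC, which KLF factors bind, the motif CCAAT, which NF-Y binds, or the motif GATAA, which Gata1 and its relatives bind, or their reverse complements.
Hba-x: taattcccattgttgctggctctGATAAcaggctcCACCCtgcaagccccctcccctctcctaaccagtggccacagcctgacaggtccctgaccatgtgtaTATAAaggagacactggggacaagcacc
Hba-a1: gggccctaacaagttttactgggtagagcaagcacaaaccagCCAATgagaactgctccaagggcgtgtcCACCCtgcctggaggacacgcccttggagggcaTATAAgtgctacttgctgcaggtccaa
Hbb-y: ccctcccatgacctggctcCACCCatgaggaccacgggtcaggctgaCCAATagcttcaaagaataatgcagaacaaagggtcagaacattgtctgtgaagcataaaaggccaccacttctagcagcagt
Alas2: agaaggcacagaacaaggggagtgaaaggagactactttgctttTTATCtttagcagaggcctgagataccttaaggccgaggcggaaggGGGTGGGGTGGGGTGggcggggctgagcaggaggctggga
The stretches are chr11:32276470-32276599 for Hba-x, chr11:32283542-32283671 for Hba-a1, chr7:103853208-103853337 for Hbb-y and chrX:150547287-150547416 for Alas2.

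All 3 globin promoters held CACCC on the gene's strand within these windows, at bases -95 (Hba-x), -60 (Hba-a1) and -111 (Hbb-y) before the start. In Alas2 the same letters stood 3 times on the other strand, at -40, -35 and -30. TATAA stood at -28 in Hba-x and -27 in Hba-a1, CCAAT at -88 in Hba-a1 and -83 in Hbb-y, and GATAA at -107 in Hba-x and, on the other strand, at -86 in Alas2. In the 250 bases before the start that were searched, beyond those printed, CACCC also stood at -198 in Hba-x and -167 in Hba-a1, GATAA at -182 in Hba-a1 and, on the other strand, at -162 in Hbb-y, and TATAA at -207 in Alas2 and, on the other strand, at -208. TATAA was nowhere in the 250 bases before Hbb-y. Short motifs are common: of 32851 promoters of 250 bases, 52.0% held CACCC, 33.8% CCAAT, 22.8% TATAA and 22.6% GATAA on either strand. These matches describe letters only.

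Near-identical copies limit what can be said of the adult genes. The coding sequence of Hba-a1 differed from that of Hba-a2 at 1 of 429 bases, and Hbb-bs from Hbb-bt at 1 of 444 bases. Of all exon stretches of the read length in the study's methods, 36.9% were unique to Hba-a1, 20.7% to Hba-a2, 50.4% to Hbb-bs and 45.3% to Hbb-bt, whereas every such stretch was unique in Hba-x, Hbb-y and Hbb-bh1. Reads that fit several places were not counted, so the levels of the adult genes are uncertain and leave out part of their reads. Hbb-y and Hbb-bh1 shared 76.4% of aligned coding bases, and Hba-x and Hba-a1 64.1%. The reference genome is of another mouse strain than CD-1, so reads of a copy may also have been placed on its neighbor.

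Counts on genes ranged from 9478891 in 8 HPI replicate 2 to 23082327 in 3 HPI replicate 2, so that 3 counts, the limit that a count of 0 allows, were 0.130 to 0.316 CPM (counts per 1000000 counts on genes). Sensory neuron markers (Tubb3, Avil, Pou4f1, Isl1) summed to 3074 to 4200.3 CPM. Markers of satellite glia and Schwann cells summed to 1.16 to 8.51 CPM, and none of the 4 endothelial markers passed the filter of over 1 CPM in at least 3 libraries. Markers of fibroblasts (3 of 5 tested) summed to 1.04 to 10.3 CPM, those of myeloid cells (2 of 5 tested) to 3.48 to 7.07 CPM and those of megakaryocytes and platelets (2 of 5 tested) to 12.8 to 19.2 CPM. The last sum was mostly Gp1bb, at a mean of 13.2 CPM, whereas Pf4, Ppbp and Gp9 had means of 0.154, 0.030 and 0.018 CPM. Of the defining red cell membrane genes, Slc4a1 had at most 5 counts in any library and Rhag had 0 in all 18. In a bulk sample, fewer red cells and less globin RNA per cell cannot be told apart.

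Hba-x encodes zeta globin, the alpha-like chain of the earliest red cells. It had 8, 22 and 41 counts in control replicates 1, 2 and 3. At 1 HPI it had 3, 6 and 24 counts, and at 3 HPI 2, 11 and 16. In every replicate number the control library was the highest. At 8 HPI it had 0, 5 and 20 counts, at 16 HPI 0, 11 and 21, and at 24 HPI 1, 5 and 23. Each injured library was below the control of its own replicate number in CPM, in 15 of 15 comparisons. These comparisons share the control libraries and include the contrast that picked Hba-x, so nothing is read from their count. The groups overlapped nevertheless, because replicate 3 stood above replicate 1 throughout: injured replicate 3 libraries held 0.881 to 1.54 CPM, and control replicate 1 held 0.392 CPM. Where the injured library had over 3 counts, 10 libraries in all, Hba-x was at 0.151 to 0.753 times its control, with a median of 0.418.

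Hbb-y encodes epsilon-y globin, the main embryonic beta-like chain, and had the most counts of the list, 1545 over 18 libraries. Control replicates 1, 2 and 3 had 31, 109 and 178 counts. At 1 HPI there were 30, 85 and 126 counts, and at 3 HPI 18, 96 and 160. The time points overlapped, whereas replicate 1 stood below replicates 2 and 3 in CPM at every time. At 8 HPI Hbb-y had 39, 32 and 66 counts, at 16 HPI 8, 80 and 134, and at 24 HPI 12, 90 and 251. The 24 HPI replicate 3 library was the highest of all at 11.8 CPM, and Hbb-y was below its own control in 12 of 15 injured libraries.

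Hbb-bh1, the other embryonic beta-like gene, had 20 counts in all and at most 4 in 1 library, with 7 libraries at 0. Summed by group it held 5 counts in control and then 4, 4, 2, 2 and 3 from the earliest to the latest time. No difference between groups was detectable at this depth.

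Hba-a1 encodes the adult alpha chain, used by embryonic and adult red cells alike. It had 30, 55 and 87 counts in control replicates 1, 2 and 3. At 1 HPI it had 14, 35 and 38 counts, at 3 HPI 22, 45 and 63, and at 8 HPI 27, 12 and 27. The 3 libraries at 8 HPI lay close together, at 1.27 to 1.54 CPM, whereas control ranged from 1.47 to 4.35 CPM. At 16 HPI there were 9, 34 and 68 counts, and at 24 HPI 18, 34 and 114. In 13 of 15 comparisons the injured library was below its own control, and the 24 HPI replicate 3 library, at 5.36 CPM, was the highest of the 18. Hba-a2, its copy, had 1 count in all, in control replicate 1.

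Hbb-bs, an adult beta chain, had 145 counts in all. The control libraries had 12, 11 and 12 counts, and the injured libraries between 3 and 13. It never exceeded 1 CPM and so was not tested. In CPM it was below its own control in 12 of 15 injured libraries, and the replicate numbers overlapped. Hbb-bt, its copy, had 2 counts, 1 in control replicate 3 and 1 in 24 HPI replicate 3.

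Alas2 makes 5-aminolevulinate, the first precursor of heme, in red cells. It had 16, 15 and 40 counts in control replicates 1, 2 and 3. At 1 HPI it had 22, 16 and 31 counts, at 3 HPI 15, 15 and 33, and at 8 HPI 10, 8 and 25. At 16 HPI it had 23, 22 and 40 counts, and at 24 HPI 17, 28 and 32. It was below its own control in 8 of 15 injured libraries, and all groups overlapped. Of its 2403 exon bases, 311 overlap exons of Apex2, a DNA repair gene on the opposite strand at 3.99 to 9.12 CPM. Whether the counting used strand is not given in the sources used here, so reads of the pair cannot be told apart in the shared bases.

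**Figure D1:**
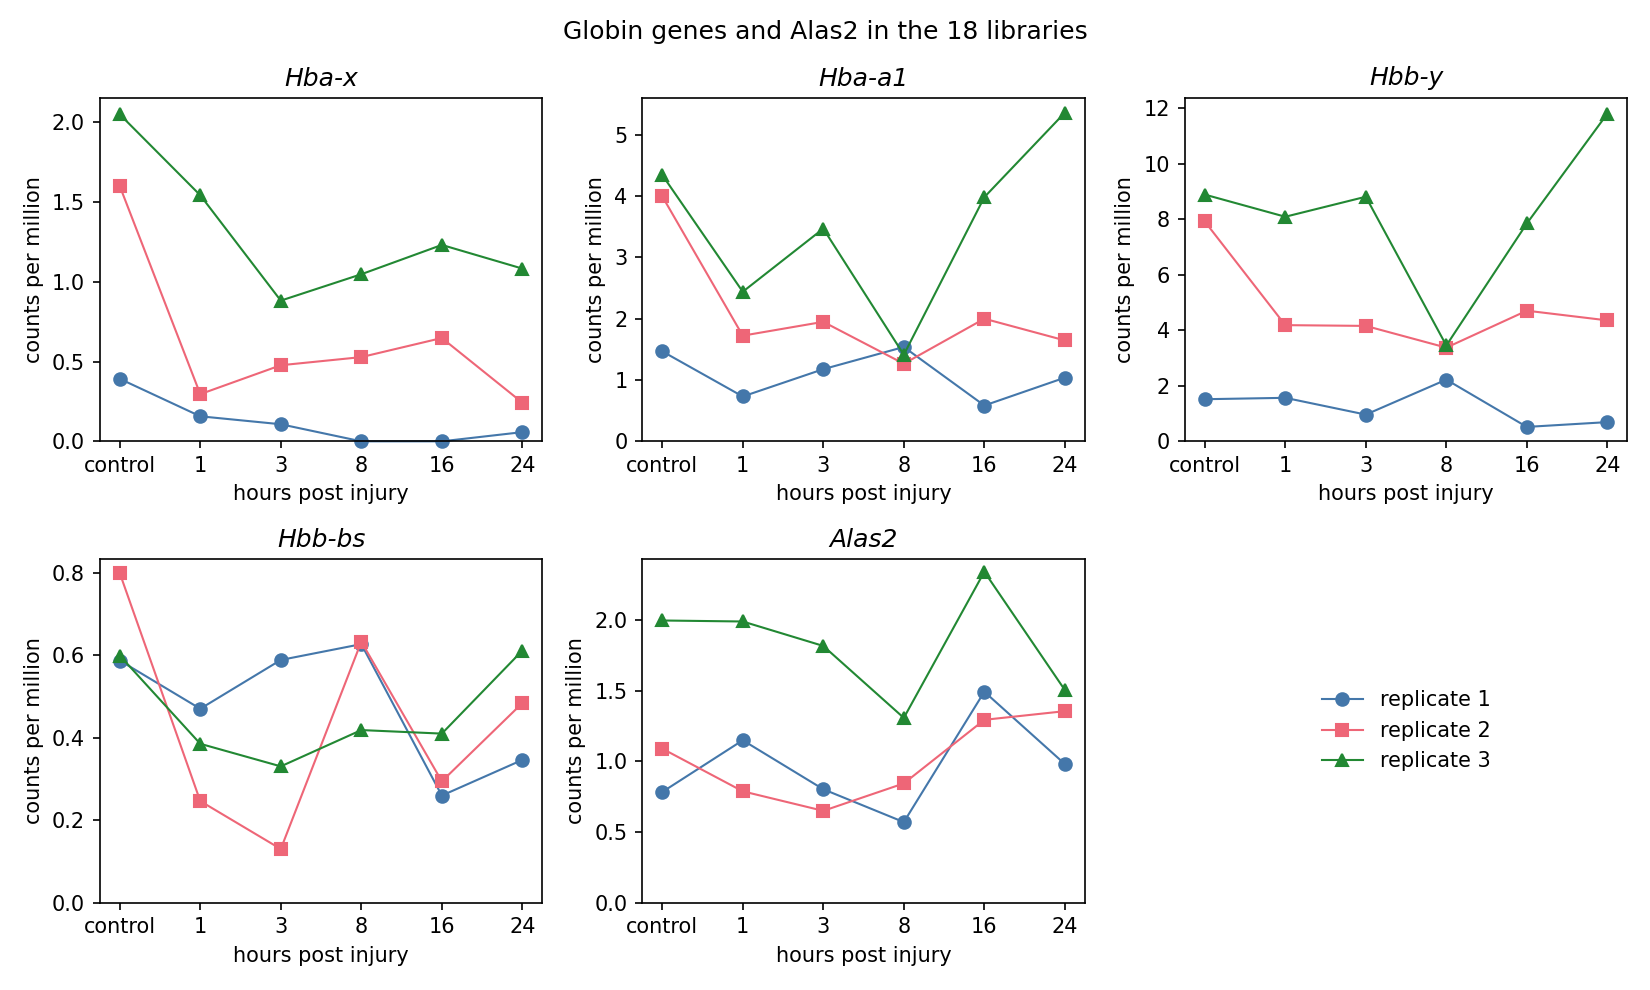
CPM (linear axes, each starting at 0) of 5 genes against hours post injury, 1 point per library, with lines joining the libraries of 1 replicate number. Hba-x, which was picked by a contrast with these controls, is highest in control within each replicate number. Replicate 3 lies above replicate 1 at every time point for Hba-x, Hbb-y and Alas2 but not for Hbb-bs.

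Per exon length and depth (RPKM, CPM per kilobase of exon), the level was highest for Hbb-y at 7.47 ± 5.34 (SD, n = 18 libraries). Hba-a1 followed at 2.75 ± 1.71 and was below Hbb-y in 17 of 18 libraries. Hba-x stood at 0.730 ± 0.659, Hbb-bs at 0.595 ± 0.226 and Alas2 at 0.526 ± 0.214. These last 3 neighbors did not differ beyond their spread: Hba-x was above Hbb-bs in 9 of 18 libraries, and Hbb-bs above Alas2 in 10. Hbb-bh1 stood at 0.096 ± 0.100, Hbb-bt at 0.0077 and Hba-a2 at 0.0041 RPKM. Tubb3, the neuronal tubulin, was at 1435 RPKM on the same scale. RPKM used the whole exon length, although reads shared between copies were not counted. Of stretches of the read length, 36.9% were unique to Hba-a1 and 50.4% to Hbb-bs, against 100% for Hbb-y and Hba-x. The place of the adult genes in this order is therefore not settled.

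The first comparison asks how each gene stood at each time after axotomy against control. In the edgeR fit with time point and replicate number, Hba-x had log2 fold changes of -1.10 (SE 0.39), -1.44 (SE 0.40), -1.41 (SE 0.42), -1.18 (SE 0.39) and -1.58 (SE 0.40) at 1, 3, 8, 16 and 24 HPI. The 5 comparisons share the control libraries. Hba-a1 had values of -0.98 (SE 0.32), -0.56 (SE 0.30), -1.14 (SE 0.35), -0.62 (SE 0.31) and -0.32 (SE 0.29) at the same times. Hbb-y had -0.40 (SE 0.31), -0.42 (SE 0.30), -0.95 (SE 0.35), -0.56 (SE 0.32) and -0.19 (SE 0.30). Both stood closest to control at 24 HPI. Without 24 HPI replicate 3 the values there were -0.91 for Hba-a1 and -0.76 for Hbb-y. Alas2 had 0.02 (SE 0.26), -0.26 (SE 0.26), -0.52 (SE 0.28), 0.40 (SE 0.25) and 0.02 (SE 0.25).

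A gene was called when its Benjamini-Hochberg adjusted p was under 0.05 and its difference over 2-fold. Of the 4 listed genes tested, 0 met both at 1 HPI and at 3 HPI, where 0.029% of all 13771 genes tested were called at each time. At 8 HPI 2 did, Hba-x and Hba-a1, where 0.537% of all genes were called. At 16 HPI Hba-x did, beside 1.49% of all genes, and at 24 HPI Hba-x, beside 0.821%. These counts rested on single libraries. Hba-x no longer met both at 8 HPI without any 1 of control replicates 1 and 2 and the 3 libraries of 8 HPI (log2 fold change -1.65 to -1.16), and at 16 HPI without any 1 of control replicates 1 and 2 and the 3 libraries of 16 HPI (-1.32 to -0.89). At 24 HPI it no longer did without control replicate 2 (-1.297) or 24 HPI replicate 2 (-1.28). Hba-a1 at 8 HPI no longer did without any 1 of 5 libraries, the 3 controls and 8 HPI replicates 2 and 3 (-1.40 to -0.44), and Hbb-y at 8 HPI met both without 8 HPI replicate 1 (-1.42). The counts come from the contrasts that picked Hba-x and nothing is read from them. Hba-x passed the filter through 6 libraries over 1 CPM, namely control replicate 2 and 5 libraries of replicate 3.

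Control replicate 2 stood above every injured library of its number for Hba-x, Hba-a1 and Hbb-y. It held 1.60 CPM of Hba-x against 0.242 to 0.647 in the injured libraries, 3.998 CPM of Hba-a1 against 1.27 to 2.00, and 7.92 CPM of Hbb-y against 3.38 to 4.71. Without that library the log2 fold change at 24 HPI was -1.297 for Hba-x, -0.05 for Hba-a1 and 0.09 for Hbb-y. At 1 HPI it was -0.81, -0.71 and -0.11, in the same order of genes. The values at 24 HPI also turned on 24 HPI replicate 3: without it they were -2.36 for Hba-x, -0.91 for Hba-a1 and -0.76 for Hbb-y. Without control replicate 3 the Hba-x value at 24 HPI was -2.31.

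Some markers of other cells stood higher at the late times. Dcn, a fibroblast matrix gene, passed the filter through the 6 libraries of 16 and 24 HPI alone. Its log2 fold changes against control, 2.07 (SE 0.28) at 16 HPI and 2.22 (SE 0.27) at 24 HPI, are therefore a description, with no test. Col1a1 and Col1a2, the other fibroblast markers tested, were not called at any time. Cd68, a lysosomal protein of macrophages, had 0.97 (SE 0.25, edgeR adjusted p = 0.00698) at 16 HPI and 0.93 (SE 0.24, adjusted p = 0.0125) at 24 HPI, under 2-fold in the fit of all libraries. It was called at 16 HPI without control replicate 1 (1.04), 16 HPI replicate 1 (1.11) or 16 HPI replicate 2 (1.01), and at 24 HPI without control replicate 1 (1.005) or 24 HPI replicate 1 (1.008). Summed myeloid markers held 3.49 to 4.99 CPM in control, 5.26 to 6.002 at 16 HPI and 6.06 to 7.07 at 24 HPI, and summed fibroblast markers 1.74 to 5.69, 3.59 to 7.60 and 3.20 to 10.3 CPM. The part of these markers in the globin differences was not tested.

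**Figure D2:**
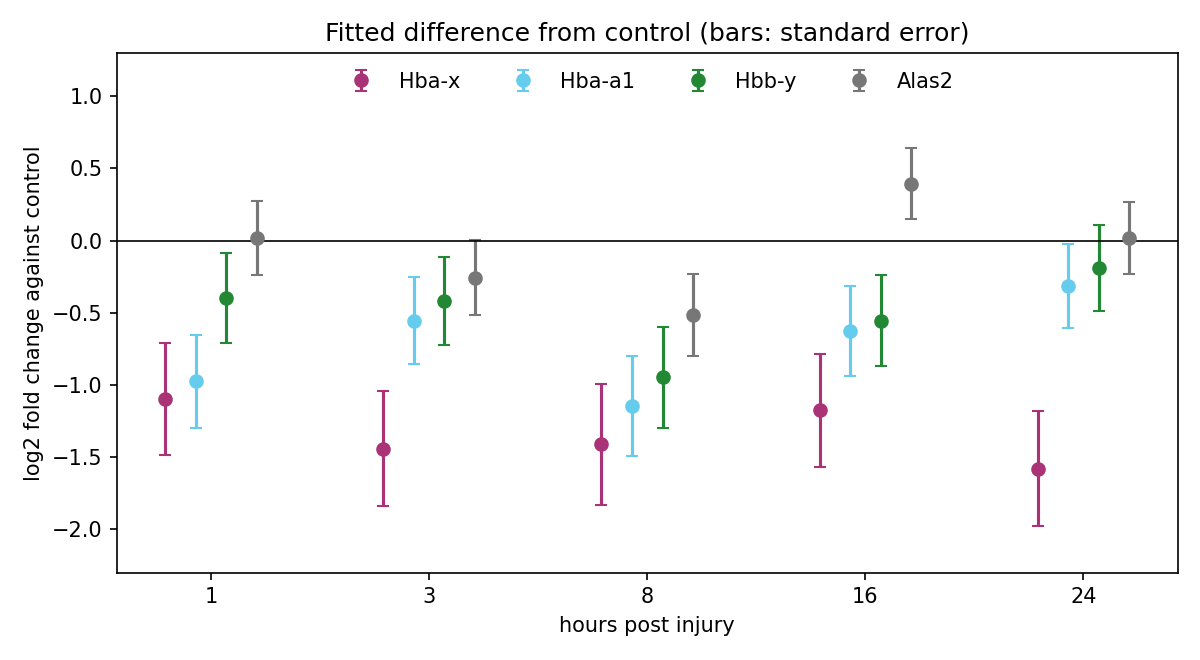
Fitted log2 fold change against control (vertical axis) by hours post injury for the 4 genes tested, with bars of 1 standard error; all 18 libraries entered the fit. Hba-x lies below 0 at all 5 times, from -1.10 to -1.58, whereas Alas2 lies between -0.52 and 0.40.

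The steps between injured time points that use neither control nor 24 HPI were tested. From 1 to 3 HPI 0 listed genes were called, and 0 had an unadjusted p under 0.05. Over all genes tested 0% were called, by edgeR as by DESeq2, and 1035 had an unadjusted p under 0.05. The adjusted p in edgeR's quasi-likelihood test was 0.880 for Hba-x, 0.775 for Hba-a1, 0.994 for Hbb-y and 0.807 for Alas2. From 3 to 8 HPI edgeR called 0 of the 4, with 0 at an unadjusted p under 0.05, beside 0.189% of all genes. DESeq2 called 0 of the 2 it gave an adjusted p, Hba-a1 and Hbb-y. In edgeR and the smallest adjusted p was 0.523, for Hba-a1 at a log2 fold change of -0.59 (SE 0.37). The Hba-x difference was 0.03 (SE 0.49).

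From 8 to 16 HPI, where 0.937% of all genes were called, Alas2 had a log2 fold change of 0.91 (SE 0.27, edgeR adjusted p = 0.0272) and was higher at 16 HPI in 3 of 3 replicate numbers. This is under 2-fold and so not called, by edgeR or by DESeq2, and without 16 HPI replicate 3 it was called at 1.04. Without 8 HPI replicate 1, 8 HPI replicate 3 or 16 HPI replicate 1 its edgeR adjusted p was 0.101, 0.122 and 0.104. Apex2, which shares bases with it, had 0.17 (SE 0.17, adjusted p = 0.555). The globin differences were 0.23 (SE 0.48, adjusted p = 0.801) for Hba-x, 0.52 (SE 0.38, adjusted p = 0.388) for Hba-a1 and 0.39 (SE 0.37, adjusted p = 0.529) for Hbb-y. The last 2 turned on single libraries: without 8 HPI replicate 1 they were 1.09 for Hba-a1 and 0.85 for Hbb-y, and without 8 HPI replicate 3 they were -0.19 and -0.41.

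From 16 to 24 HPI, where 0.508% of all genes were called, the values are a description: -0.40 (SE 0.46) for Hba-x, 0.31 (SE 0.31) for Hba-a1, 0.36 (SE 0.31) for Hbb-y and -0.38 (SE 0.24) for Alas2. Without 24 HPI replicate 3 they were -1.19, -0.29, -0.21 and -0.10 in the same order, so that 1 library set the direction for Hba-a1 and Hbb-y.

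Replicates 1, 2 and 3 differed in their globin levels at most time points, as the plot of CPM by library shows. The same number was given once at each time point, and the study corrected for batch without saying what the batches were, so the numbers were compared in the same fit. Same-numbered libraries deviated together (mean r of 0.619 over pairs), so the 6 of 1 number may not be independent. The p-values between numbers take them as independent, and so cannot speak for a difference between batches. Mean CPM in replicates 1, 2 and 3 was 0.119, 0.631 and 1.305 for Hba-x (n = 6 libraries each). For Hbb-y it was 1.25, 4.79 and 8.15, and for Hba-a1 1.09, 2.10 and 3.50. Replicate 3 was above replicate 1 at 6 of 6 time points for Hba-x and Hbb-y and at 5 of 6 for Hba-a1. Alas2 had 0.963, 1.00 and 1.83 CPM, with replicate 3 above both others at 6 of 6. Hbb-bs had 0.480, 0.431 and 0.459 CPM and did not separate the numbers.

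Hba-x entered the test only because 5 libraries of replicate 3 and 1 of replicate 2 exceeded 1 CPM, so its differences between replicate numbers are a description, with no test. They were 3.22 (SE 0.38) between replicates 3 and 1, 2.14 (SE 0.45) between 2 and 1 and 1.08 (SE 0.27) between 3 and 2, as log2 fold changes.

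Between replicates 3 and 1, where 3.46% of all genes were called, Hbb-y and Hba-a1 were called. Hbb-y had a log2 fold change of 2.55 (SE 0.26, edgeR adjusted p = 5.685e-08) and Hba-a1 of 1.54 (SE 0.24, adjusted p = 1.899e-05). Alas2 had 0.80 (SE 0.18, adjusted p = 0.000745), under 2-fold, and Apex2 0.40 (SE 0.11, adjusted p = 0.00487).

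Between replicates 2 and 1, where 2.32% of all genes were called, Hbb-y was called at a log2 fold change of 1.81 (SE 0.28, edgeR adjusted p = 3.404e-05). Hba-a1 had 0.82 (SE 0.27, adjusted p = 0.0218), called without 8 HPI replicate 1 (1.08) or 24 HPI replicate 2 (1.01), and Alas2 -0.04 (SE 0.20, adjusted p = 0.919). Between replicates 3 and 2, where 1.89% of all genes were called, Hbb-y had 0.75 (SE 0.20, edgeR adjusted p = 0.00629), Hba-a1 0.72 (SE 0.22, adjusted p = 0.0127) and Alas2 0.84 (SE 0.18, adjusted p = 0.00106), all under 2-fold.

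Markers of other cells differed between replicate numbers too, in both directions. Summed markers of satellite glia and Schwann cells, of which 3 of 4 were tested, held 1.23 to 4.35 CPM in replicate 1, 1.16 to 1.74 in replicate 2 and 1.78 to 8.51 in replicate 3. Of the 3 glial markers, Cdh19 passed the filter through 2 libraries of replicate 3 and 1 of replicate 1, and Sox10 likewise without replicate 2. The differences of Cdh19 and Sox10 between replicate numbers are therefore a description, with no test. As edgeR log2 fold changes, they were 2.46 and 2.67 between replicates 3 and 2 and 0.96 and 1.10 between 3 and 1. Erbb3 exceeded 1 CPM in 5 libraries of replicate 3, 2 of replicate 1 and 1 of replicate 2. It was called higher in replicate 3 than in replicate 2 (1.49, SE 0.26, edgeR adjusted p = 0.000152). Against replicate 1 it had 0.86 (SE 0.24, adjusted p = 0.00461), under 2-fold in the fit of all libraries. For Sox10, a glial transcription factor, the value of 1.10 (SE 0.37) between replicates 3 and 1 turned on single libraries. It was 0.80 to 0.95 without any 1 of control replicates 1 and 3, 1 HPI replicate 1 and 24 HPI replicates 1 and 3. Sox10 passed the filter through 3 libraries of replicate 3 and 1 of replicate 1. Between replicates 2 and 1 the 3 glial markers had values below 0, at -1.57 (SE 0.57) for Sox10. That Sox10 value was -1.60 to -1.17 without any 1 of control replicate 2, 3 HPI replicate 1, 8 HPI replicates 1 and 2, 16 HPI replicates 1 and 2 and 24 HPI replicate 2. Hba-x, Hbb-y and Hba-a1 had a higher mean CPM in replicate 2 than in replicate 1. Of the myeloid markers tested, Aif1 was lower in replicate 3 than in replicate 1 (-0.76, SE 0.15, edgeR adjusted p = 0.000194), whereas Cd68 had 0.83 (SE 0.17). The fibroblast marker Dcn was called lower in replicate 2 than in replicate 1 (-1.17, SE 0.21, edgeR adjusted p = 0.000154). Col1a1 and Col1a2 were called in no pair in the fit of all libraries. Sensory neuron markers held 3074 to 4160.0 CPM in replicate 1, 3538 to 4200.3 in replicate 2 and 3274 to 3946 in replicate 3. The part of these markers in the globin differences was not tested.

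**Figure D3:**
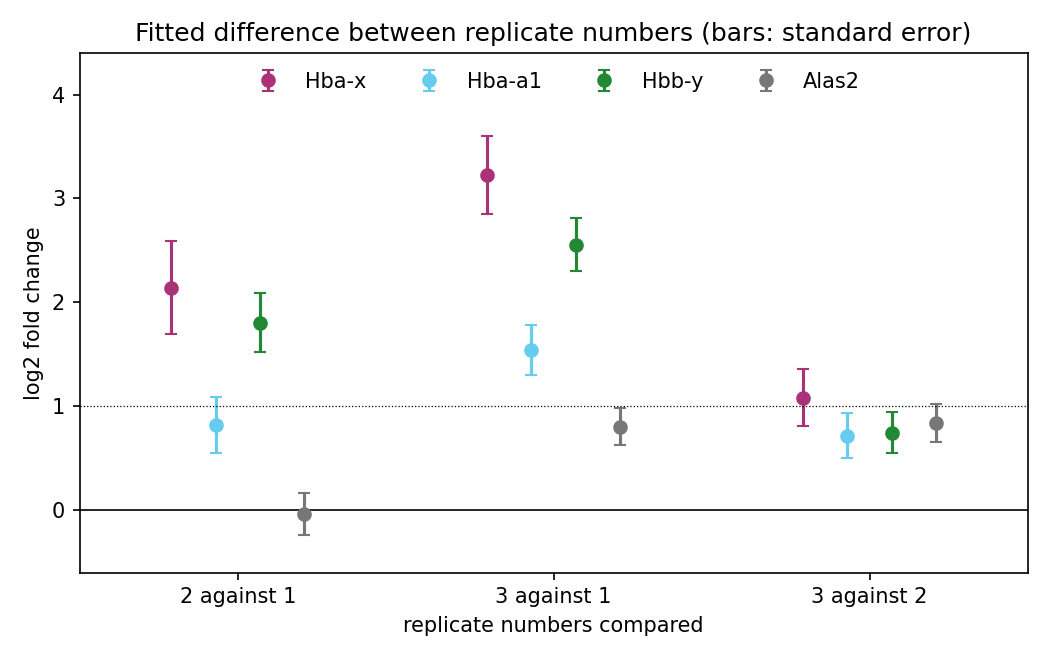
Fitted log2 fold change between replicate numbers, each pair on the horizontal axis, for the 4 genes tested, with bars of 1 standard error and a dotted line at 2-fold. Hba-x and Hbb-y lie over the line between replicates 2 and 1 and between 3 and 1, and Alas2 stays under it in all 3 pairs.

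Of the sum of squares of log2 CPM over the 18 libraries, the replicate number held 80.4% for Hbb-y, 74.5% for Hba-x, 56.0% for Hba-a1 and 54.2% for Alas2, beside a median of 34.3% over all genes tested. The time point held 4.403%, 17.2%, 19.4% and 28.4%, beside a median of 31.0%. Across the 18 libraries, which share depth and handling, Pearson's r of log2 CPM was 0.891 between Hbb-y and Hba-a1, 0.851 between Hbb-y and Hba-x and 0.784 between Hba-x and Hba-a1. With the replicate means removed these were 0.799, 0.374 and 0.418. The r of Alas2 with the 3 globins was 0.395 to 0.510, and -0.174 to 0.020 with the replicate means removed.

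The makeup of the globin counts also differed between replicate numbers. Hba-x made up 8.63% ± 8.75 (SD, n = 6) of the alpha-like counts in replicate 1, 21.6% ± 7.03 in replicate 2 and 29.0% ± 10.4 in replicate 3. Replicate 3 was above replicate 1 at 6 of 6 time points, by 20.4 percentage points (SD 12.1). In replicate 1 the share was 0 of 27 counts at 8 HPI, which allows up to 11.1%, and 0 of 9 at 16 HPI, which allows up to 33.3%. Hbb-y and Hbb-bh1 together made up 70.5% ± 6.44 of the beta-like counts in replicate 1, 91.9% ± 4.52 in replicate 2 and 94.1% ± 2.53 in replicate 3. Replicates 2 and 3 were above replicate 1 at 6 of 6 time points each. A share over chosen genes carries no test here. Reads shared between the adult copies were not counted, so the size of each share is uncertain.

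By time point, the Hba-x share of alpha-like counts was 20.5%, 28.6% and 32.0% in control replicates 1, 2 and 3, with 95% Wilson intervals of 10.8 to 35.5, 19.7 to 39.5 and 24.6 to 40.5%. At 24 HPI it was 5.26%, 12.8% and 16.8%, with intervals of 0.935 to 24.6, 5.60 to 26.7 and 11.5 to 23.9%. All 3 values at 24 HPI lay below all 3 of control, which describes the contrast that picked Hba-x, and nothing is read from it. The times between did not lie in order: the mean share was 27.0% in control, then 23.7%, 16.1%, 24.0%, 16.0% and 11.6% from the earliest to the latest time. The embryonic share of beta-like counts had means of 83.9% to 89.0% over the same groups, with standard deviations of 5.45 to 20.0, and no group stood apart. Intervals cover counting error only, since reads are not independent molecules.

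**Figure D4:**
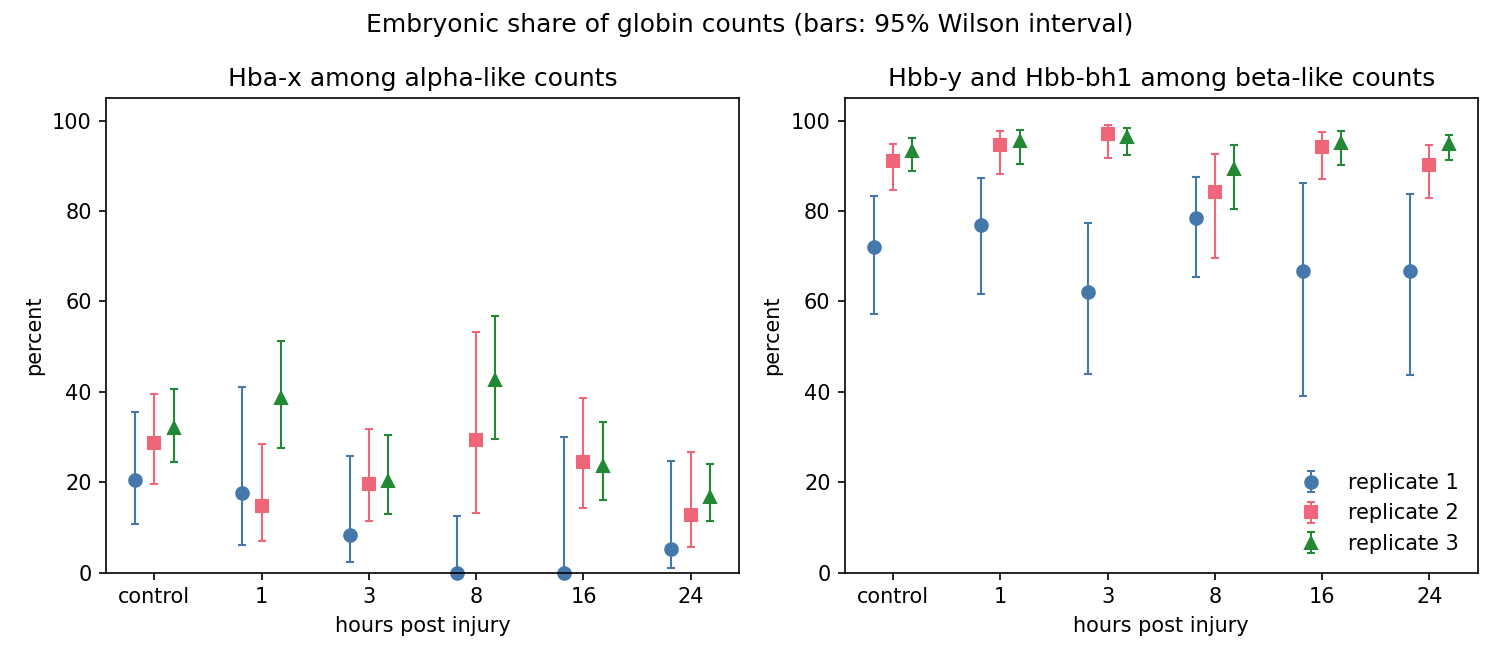
Percent of alpha-like counts on Hba-x and percent of beta-like counts on Hbb-y and Hbb-bh1, 1 point per library by hours post injury, with 95% Wilson intervals. Replicate 1 holds the lowest beta-like share at all 6 time points, and Hba-x shares at 24 HPI, 5.26% to 16.8%, lie below those of control, 20.5% to 32.0%.

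The other genes of the pathway were counted from lists. Counts of list genes at a p under 0.05 are read against all genes tested, of which 57.6% had an unadjusted p under 0.05 at some time against control and 73.4% in some pair of replicate numbers. Of all genes tested, edgeR called 0.029% to 1.49% at a single time against control and 1.89% to 3.46% in a single pair of replicate numbers. With lists this short, 0 or 1 called is near those shares. DESeq2 gave some list genes of lower count no adjusted p at 1 and 3 HPI, so its counts against control leave those out. Of 8 further heme synthesis genes, all tested, edgeR called 0 at any time against control and 0 between replicate numbers, as did DESeq2. Against control 3 had an unadjusted p under 0.05 at some time and 2, Cpox and Uros, an adjusted one, and between replicate numbers 6 and 5 did. The highest were Cpox at 48.9 CPM, Alas1, the housekeeping form of the enzyme, at 42.7 CPM and Uros at 35.7 CPM. Cpox, which makes protoporphyrinogen, had a log2 fold change of 0.45 (SE 0.06, edgeR adjusted p = 4.353e-05) at 8 HPI. The list's median log2 fold change against control ranged from -0.04 to 0.07 over the 5 times, beside medians of all genes within 0.0022 of 0.

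Of 14 iron and heme handling genes, all tested, 1 was called against control: Hmox1, which breaks heme down, at 8 HPI (log2 fold change 1.07, SE 0.11, edgeR adjusted p = 2.018e-06). Without control replicate 1 it was 0.99 and not called, without the replicate block it was not called either (1.04, edgeR adjusted p = 0.0912), and at 16 HPI it was called without control replicate 2 (1.03) or 16 HPI replicate 2 (1.02). It was also called lower at 24 than at 16 HPI (-1.15, SE 0.11, adjusted p = 1.525e-06). Between replicate numbers edgeR and DESeq2 called 0, while 13 had an unadjusted p under 0.05 in some pair. The highest were the ferritin chains Ftl1 at 379 CPM and Fth1 at 151 CPM, and Tfrc, the transferrin receptor, at 217 CPM. Tfrc had -0.48 (SE 0.08, adjusted p = 9.583e-05) at 16 HPI, under 2-fold.

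Of 28 red cell structure and enzyme genes, 12 were tested and 0 were called against control by edgeR or DESeq2, while 9 had an unadjusted p under 0.05 at some time. Aqp1, a water channel, was lower in replicate 3 than in replicate 1 (log2 fold change -1.14, SE 0.12, edgeR adjusted p = 1.553e-07) and than in replicate 2 (-1.06, SE 0.12, adjusted p = 1.326e-06), the opposite direction to the globins. The second of these was not called without 8 HPI replicate 3 or 16 HPI replicate 2 (both -0.97). The highest were Add2 at 555 CPM, Bnip3l at 83.0 CPM and Bpgm at 63.2 CPM, genes that other tissues express too. Of 15 erythroid transcription factors, 6 were tested and edgeR called 0, while 4 had an unadjusted p under 0.05 against control at some time and 5 between replicate numbers. Lmo2, a partner of Tal1, had a log2 fold change of 0.99 (SE 0.24, edgeR adjusted p = 0.00525) at 16 HPI, and DESeq2 called it at 1.00, as did edgeR without control replicate 3 (1.10) or 16 HPI replicate 2 (1.11). Gata1, Klf1 and Tal1, which drive red cell genes, had at most 3, 5 and 3 counts in a library. The highest were Zbtb7a at 49.2 CPM, Ldb1 at 46.3 CPM and Bcl11a, a repressor of embryonic and fetal globin genes that neurons also express, at 25.7 CPM. At 24 HPI Bcl11a had -0.24 (SE 0.08, adjusted p = 0.0364).

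Of 7 other globin genes, 2 were tested and 0 called by edgeR or DESeq2, while 1 had an unadjusted p under 0.05 against control at some time. Cygb, cytoglobin, had a mean of 8.29 CPM and Ngb, the neuronal neuroglobin, of 1.04 CPM. Cygb was lower in replicate 3 than in replicate 1 by a log2 fold change of -0.46 (SE 0.07, edgeR adjusted p = 2.589e-05), under 2-fold and opposite to the hemoglobin genes. Ngb had -0.93 (SE 0.29, adjusted p = 0.0261) at 16 HPI, also under 2-fold, and was called without control replicate 2 (-1.04), 16 HPI replicate 2 (-1.09) or 16 HPI replicate 3 (-1.05). Hbq1b, a theta-like gene of the alpha cluster, had at most 11 counts in a library, Hbq1a and Mb at most 4, Hbb-bh0 1 count and Hbb-bh2 none.

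The 10 genes whose log2 CPM was most like that of the summed globin counts over the 18 libraries were Cluh (Pearson's r = 0.915), Samd12 (0.904), Tunar (0.896), Usp11 (0.894), Zdhhc1 (0.893), Ddx17 (0.888), Nt5dc2 (0.887), Slit1 (0.887), Ttyh1 (0.887) and Galnt17 (0.884). The libraries share replicate number, depth and handling, and no p is attached. All 10 had a higher mean CPM in replicate 3 than in replicate 1, as the globins did. Slit1, an axon guidance ligand, had 49.3, 96.3 and 116 CPM in replicates 1, 2 and 3. With the replicate means removed, the 10 most like genes were different ones, led by Lrrtm3 (r = 0.793), and the best placed of the first 10 was Ddx17 at rank 24. Of the genes on the lists, those with the highest r were Bcl11a at 0.881, the sensory neuron marker Avil at 0.856, Slc25a37, a mitochondrial iron importer, at 0.849 and Epb41, a membrane skeleton protein, at 0.804, against 0.419 for Alas2. With the replicate means removed these were 0.612, 0.308, 0.280 and 0.040, against -0.196 for Alas2. Other genes of the heme, iron and red cell lists went the other way, though less far, with Slc25a38 at -0.7765, Uros at -0.765 and Bnip3l at -0.745 before that removal. The sensory neuron markers other than Avil went both ways, with Pou4f1 at 0.621, Tubb3 at -0.378 and Isl1 at -0.732 before it.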

How the data were processed

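RNA was depleted of ribosomal RNA and amplified as cDNA with a SMARTer kit, per the labels, and sequenced in pairs. The deposited values are whole-number counts per gene and library, made by the authors with STAR on mm10 and HTSeq per the labels (the study's methods name featureCounts instead, and the labels give no versions), with no normalization. Reads placed on several sites (14.7% to 19.8% of each file's entries) or on no gene (25.2% to 33.2%) stand in 5 closing entries and were left out. Of the 47643 Ensembl IDs, 47224 were named by GENCODE vM21, 39106 at the same version, and 419 were not named. Hbb-b1, Hbb-b2 and Ahsp were not analysed here, and a few genes of the marker and red cell lists are not reported here and were left out of their sums and counts.

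Each library was assigned by its label. The model was edgeR 4.0.16 (R 4.3.3) quasi-likelihood with TMM factors, time point and replicate number, over 13771 genes above 1 CPM in at least 3 libraries, two-sided, with Benjamini-Hochberg adjustment over all of them. Same-numbered libraries deviated together: over 45 such pairs r had a mean of 0.619 (0.483 to 0.764), over 90 others -0.308, so the number stayed in the model; the study corrected for batch and does not say what the batches were. On simulated counts the script was tested before use. Log2 CPM used a prior count of 2, RPKM the summed exon length, and no 2 libraries were identical. Alternatives were DESeq2 1.42.0 size factors and Wald test, other filters, no replicate number, a fit of only both groups compared, and fits that drop 1 library. The members, lists and tests were chosen with earlier results of these data known. Named genes were all members, and from each list the called genes and the 3 of highest mean CPM. Others (Lmo2, Epb41, Slc25a37, Slc25a38, Avil, Cd68, Aif1, platelet genes and red cell genes of low count) were named after their values were seen. A planned test of the embryonic share was not run, since a score over chosen genes carries no p. Promoters (7 of 8 genes) are from RefSeq, GRCm38.p6. Coding sequences, not proteins, were compared.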

Additional observations from a re-analysis of the deposited data

How the results depend on the processing

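For the comparisons with control, values moved mostly with single libraries. The Hba-x log2 fold change at 24 HPI, -1.58, ranged from -2.36 (without 24 HPI replicate 3) to -1.28 (without 24 HPI replicate 2) when 1 library was left out, and was -2.31 without control replicate 3. With no replicate block it was -1.48. The Hbb-y value at 24 HPI, -0.19, was 0.09 without control replicate 2.

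Without the replicate block, which the reported fit holds, the count of erythroid, heme and iron genes called at 8 HPI went from 1 to 0, since Hmox1 was no longer called. Leaving out 1 library gave 0 to 1 there. At 16 HPI the count went from 0 to 1 by DESeq2's Wald test and with the 2 groups alone, Lmo2 in both, and ranged from 0 to 3 with 1 library left out. Between replicates 3 and 1 it went from 1 to 2 at a filter of at least 10 counts in all, which added Hbq1b, and between replicates 3 and 2 it ranged from 0 to 1 with 1 library left out.

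Between replicates 3 and 1, where 3.46% of all genes were called in the main fit, Hbb-y and Hba-a1 were called in each of 15 alternatives that kept them. Between replicates 2 and 1, where 2.32% of all genes were called, Hbb-y was called in each of 15. Hba-a1 was called there without 8 HPI replicate 1 or 24 HPI replicate 2. Between replicates 3 and 2, neither was called in any of 15. Hba-x, which passed the filter mostly through replicate 3, is left out here. From 8 to 16 HPI, where 0.937% of all genes were called, the count of members called ranged from 0 to 1 with 1 library left out. A filter of over 1 CPM in all 18 libraries removed all 4 tested members, so it gave no value for them. The embryonic share of beta-like counts, 23.6 percentage points higher in replicate 3 than in replicate 1, was 14.4 with each near-identical pair taken as 1 copy, which takes the mean of each adult pair in place of its sum. Reads shared between the copies were already left out, and that run lowers the adult counts further. It therefore cannot show how the share depends on those reads. Of the 10 genes most like the globins, Spearman's rho kept 4 and removal of the replicate means 0.

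Over all genes, the counts called at 8, 16 and 24 HPI (74, 205 and 113) were 16, 108 and 23 with no replicate block, and 26, 68 and 24 at over 1 CPM in all libraries. Between replicates 3 and 1 the count, 477, was 1316 at the filter of 10 counts and 188 at the strictest filter. Depth limits Hba-a2, Hbb-bt and Hbb-bh1, at most 4 counts in a library, and Hba-x in replicate 1, at most 8.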
